A study of Mus musculus with 20 samples.

Results

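The transcripts described here encode the enzymes and cofactors that write and erase 5-methylcytosine in DNA, followed through RNA immunoprecipitation (RIP) of tagged Tet proteins in mouse embryonic stem cells (ESCs). They are 9 genes of the 23284 listed in each file, chosen by name: 5 writers (Dnmt1, Dnmt3a, Dnmt3b, Dnmt3l and Uhrf1) and 4 erasers (Tet1, Tet2, Tet3 and Tdg). All 9 passed the filter on low counts. DNA methyltransferases place a methyl group on cytosine, mostly at CpG sites, and maintenance and de novo methylation are carried out by different enzymes. Tet dioxygenases oxidise the methyl group, and thymine DNA glycosylase cuts out the more oxidised bases for repair. Embryonic stem cells carry high levels of the de novo enzymes and of Tet1 and Tet2, and Tet proteins have also been studied as enzymes that oxidise 5-methylcytosine in RNA.

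The series holds 20 libraries from 3 knock-in ESC lines, all made from wild-type cells and grown on gelatin in serum with leukemia inhibitory factor. In Tet1-KI and Tet2-KI cells the endogenous protein carries a Flag, HA and Twin-Strep tag at its C-terminus, and in Tet2dRBD-KI cells the tagged Tet2 also lacks its RNA-binding domain (RBD). The IP libraries hold RNA recovered with anti-Flag antibody from cytoplasmic extract, and the input libraries hold total RNA of the same line. Tet1-KI has 2 pairs of IP and input, and Tet2-KI and Tet2dRBD-KI have 4 pairs each. The knock-in cells were picked as clones, so a difference between lines and a difference between clones cannot be told apart, and IPs with control IgG were not analysed here. The study reports biological duplicates or more for RIP-Seq but does not state that the samples of a line come from separate cultures. P-values therefore measure only the spread between these libraries.

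Each library held between 21078995 and 37576638 estimated read counts. The file numbering placed the pairs in 3 library sets, called A, B and C here: replicate 1 of Tet2-KI and of Tet2dRBD-KI was in set A, replicate 2 of each in set B, and replicates 3 and 4 of each in set C together with both Tet1-KI pairs. The pluripotency markers Pou5f1, Nanog and Sox2 were high in every input, with lowest levels of 2000, 177 and 183 TPM (a level per transcript length, scaled to the library). The 9 differentiation markers summed to 18.4 to 106 TPM in the inputs, mostly from Gata4 (up to 43.7 TPM), Gata6 (26.1), Sox1 (19.7) and Sox17 (18.98), while T and Afp did not exceed 0.25 and 0.10 TPM. The 6 fibroblast markers summed to 10.7 to 63.2 TPM, mostly from Thy1 (up to 35.8 TPM), Col1a1 (17.8) and Col1a2 (9.24), while Postn and Dcn did not exceed 0.27 and 0.19 TPM.

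Tet1 and Tet2 are at once members of the group and the proteins that were tagged. The guide RNAs that directed the cut at each stop codon are shown because they place the tag on transcripts whose levels are reported. The 20 bases that match the genome are in lower case and the adjoining PAM, the motif that Cas9 needs beside its target, is in capitals.
Tet1 guide 1: ctttagacccaacgattgtaGGG
Tet1 guide 2: atgtaatgcctttgctaatgTGG
Tet2 guide 1: cgtcatacaaatgtgttgtaAGG
Tet2 guide 2: gccattaggccagaccaccaAGG
In the mm9 build, Tet1 guide 1 matched chr10:62275278-62275297 on the plus strand and covered all 3 bases of the Tet1 stop codon. Tet1 guide 2 matched chr10:62275249-62275268 on the minus strand, 12 bases past the stop codon in the 3′ untranslated region. Tet2 guide 1 matched chr3:133129699-133129718 on the plus strand and covered the Tet2 stop codon, and Tet2 guide 2 matched chr3:133129676-133129695 on the minus strand, 6 bases past it. The Tet2 segment absent from the Tet2dRBD repair template mapped to chr3:133129884-133130045, which is 162 bases or 54 codons in frame within exon 11 of 11, in the last coding exon. Reads from the inserted tag have no counterpart in the reference, and 162 bases are a small part of the Tet2 transcript, whose median effective length was 9113 bases.

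Among the writers, Dnmt3l was the most abundant transcript of the group in 10 of 10 inputs and Uhrf1 was the second in 10 of 10. Dnmt3l (chr10:77504692-77526367, plus strand) encodes a cofactor without catalytic activity that stimulates the de novo methyltransferases, and Uhrf1 (chr17:56442744-56462909, plus strand) encodes the protein that brings Dnmt1 to hemimethylated DNA. The mean input level of Dnmt3l was 490 ± 4.55 TPM in Tet1-KI (SD, n = 2), 319 ± 225 in Tet2-KI (n = 4) and 326 ± 152 in Tet2dRBD-KI (n = 4). Uhrf1 had means of 135 ± 0.247, 143 ± 78.3 and 137 ± 66.8 TPM in the same order. The small SD of Tet1-KI is over libraries of 1 set, whereas the other SDs span 3 sets.

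Dnmt3b (chr2:153475186-153513466, plus strand), a de novo methyltransferase of early embryonic cells, followed with 110 ± 0.262, 46.9 ± 26.8 and 70.2 ± 45.0 TPM. Dnmt1 (chr9:20711650-20757317, minus strand), the maintenance methyltransferase, had 36.6 ± 0.955, 36.5 ± 22.4 and 39.3 ± 22.1 TPM. Dnmt3a (chr12:3806007-3914443, plus strand), the other de novo enzyme, was the least abundant writer with 14.2 ± 0.750, 11.2 ± 7.12 and 17.3 ± 8.45 TPM. The 4 writers other than Dnmt3a exceeded every eraser in each of the 10 inputs, while Dnmt3a exceeded Tet1 in only 5 of 10.

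Among the erasers, Tet1 (chr10:62267318-62361866, minus strand) was at 15.4 ± 2.57, 10.3 ± 1.86 and 12.2 ± 3.75 TPM in the inputs of Tet1-KI, Tet2-KI and Tet2dRBD-KI. Tet2 (chr3:133126643-133207354, minus strand) was at 5.87 ± 1.28, 5.83 ± 1.29 and 5.99 ± 2.75 TPM. Tdg (chr10:82092573-82113544, plus strand), the glycosylase that removes oxidised methylcytosine, was at 4.61 ± 0.219, 8.92 ± 5.33 and 10.2 ± 5.64 TPM. Tet3 (chr6:83312367-83391672, minus strand), a Tet enzyme best known from the oocyte and zygote, was the least abundant member in 10 of 10 inputs, at 1.41 ± 0.198, 1.23 ± 0.569 and 1.46 ± 0.658 TPM. Tet3 still had 160 to 923 estimated counts per library, so its values do not rest on a handful of reads.

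**Figure D1:**
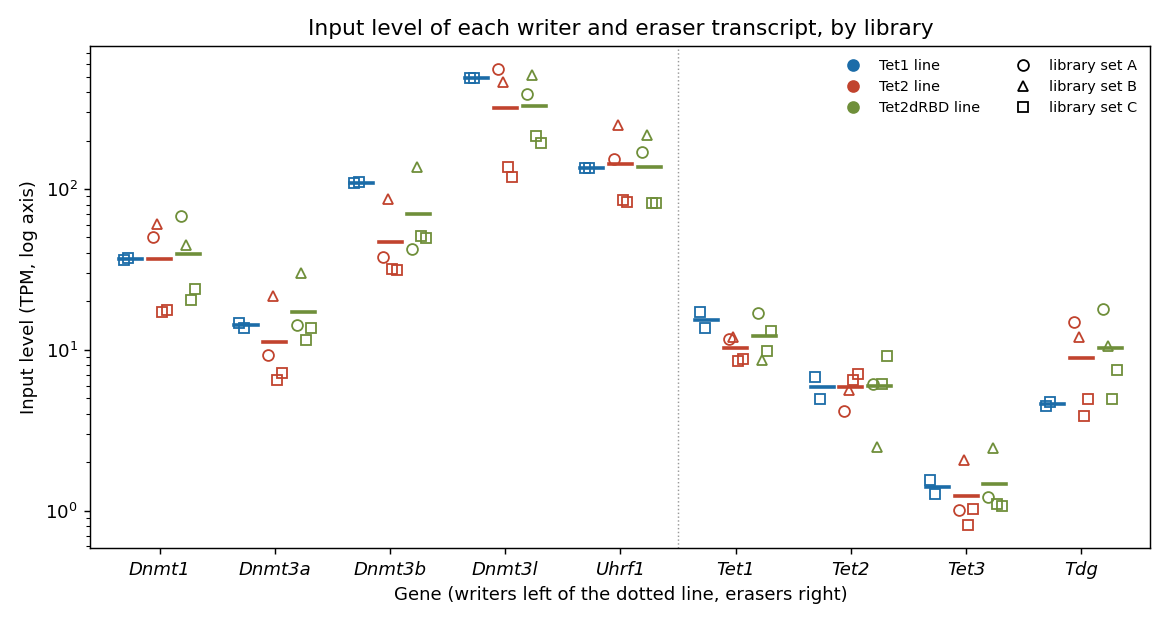
Input level of the 9 transcripts in TPM on a log axis, with 1 symbol per input library, colour for the line, symbol shape for the library set and a bar for the mean of a line. Dnmt3l lies highest and Tet3 lowest in every library, and in Tet2-KI and Tet2dRBD-KI the set C libraries of Dnmt1, Dnmt3l and Uhrf1 lie below those of sets A and B.

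In Tet2-KI and Tet2dRBD-KI the order of the means was the same from first to last, namely Dnmt3l, Uhrf1, Dnmt3b, Dnmt1, Dnmt3a, Tet1, Tdg, Tet2 and Tet3. In both lines the ranges of neighbours over the 4 inputs overlapped at every step except between Tet2 and Tet3. In Tet1-KI, with 2 inputs, the ranges of neighbours overlapped only for Tet1 and Dnmt3a, and there Tet1 ranked above Dnmt3a and Tet2 above Tdg. Both Tet1-KI inputs are in set C, where the Tet2-KI means had the same ranks. These were 8.645 TPM for Tet1, 6.835 for Dnmt3a, 6.79 for Tet2 and 4.43 for Tdg. In set C of Tet2dRBD-KI they were 11.455, 12.565, 7.67 and 6.23 TPM, with Tet2 again above Tdg but Tet1 below Dnmt3a. The 5 writers summed to 786 ± 4.77, 557 ± 335 and 590 ± 276 TPM in the inputs of Tet1-KI, Tet2-KI and Tet2dRBD-KI, against 27.3 ± 3.83, 26.2 ± 6.35 and 29.8 ± 9.15 TPM for the 4 erasers. The writer sum was thus 11.7 to 39.0 times the eraser sum over the 10 inputs, with the lowest and the highest ratio both in Tet2dRBD-KI.

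The input levels of Dnmt3l and Dnmt3b differed between library sets within a line. In Tet2-KI, Dnmt3l was at 559 TPM in set A, 463 in set B, and 136 and 119 in set C. In Tet2dRBD-KI it was at 389 TPM in set A, 512 in set B, and 212 and 192 in set C. Sets A and B were thus above set C in both lines without overlap. Dnmt3b differed in another way: it was at 87.0 TPM in the set B input of Tet2-KI against 37.6, 31.9 and 31.4 in the others, and at 137 TPM in the set B input of Tet2dRBD-KI against 42.6, 51.1 and 49.8. In both lines a single set stood above all others for this gene.

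Tet1-KI has no library outside set C, so its inputs were compared with Tet2-KI in a model with the library set as a term (edgeR quasi-likelihood test, Benjamini-Hochberg adjusted p under 0.05, 13310 genes). Of the 9 members, 7 were higher in Tet1-KI and none was lower. Over all genes, 17.5% were called higher in Tet1-KI in the same test, and 1860 of the 13310 were called lower. The median log2 difference was 0.70 over the members and -0.01 over all genes tested.

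All 5 writers were among the 7. Dnmt3b was at 109 and 110 TPM in the Tet1-KI inputs and at 31.9 and 31.4 TPM in the Tet2-KI inputs of the same set, so these groups did not overlap, and its fitted log2 difference was 1.69 ± 0.13 (SE, edgeR adjusted p = 0.00015). Dnmt3l was at 486 and 493 TPM against 136 and 119, with a log2 difference of 1.66 ± 0.24 (adjusted p = 0.0013). Dnmt1 was at 36.0 and 37.3 TPM against 17.2 and 17.6, and Dnmt3a at 14.7 and 13.7 against 6.50 and 7.17, with log2 differences of 0.94 ± 0.15 and 0.91 ± 0.11. Each of these writers was thus at about a doubling or more in Tet1-KI within set C, and Uhrf1 had the smallest difference of the 5, with 136 and 135 TPM against 85.9 and 83.5 and a log2 difference of 0.63 ± 0.08.

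Of the erasers, Tet1 and Tet3 were called. Tet1, the tagged gene of the first line, was at 17.3 and 13.6 TPM in Tet1-KI against 8.54 and 8.75 in set C of Tet2-KI, with a log2 difference of 0.70 ± 0.19 (edgeR adjusted p = 0.024). Tet3 was at 1.55 and 1.27 TPM against 0.81 and 1.03, with 0.57 ± 0.16 (adjusted p = 0.022). Tet2 did not pass, at 6.77 and 4.96 TPM against 6.46 and 7.12, and neither did Tdg, at 4.45 and 4.76 against 3.88 and 4.98. Their log2 differences were -0.38 ± 0.32 and -0.11 ± 0.21.

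The calls of the 5 writers held with any single input omitted. Those of Tet1 and Tet3 did not: Tet1 was lost without Tet1-KI replicate 1 or 2 or Tet2-KI replicate 3 or 4 (log2 0.54 to 0.84, adjusted p 0.056 to 0.17), and Tet3 without Tet1-KI replicate 1 or 2 or Tet2-KI replicate 3 (0.45 to 0.69, adjusted p 0.057 to 0.17). Without the library set in the model no member passed, and the differences of Dnmt1 and Uhrf1 turned to -0.03 and -0.12. The summed level of 6 fibroblast markers was 14.0 and 16.2 TPM in the Tet1-KI inputs and 42.4 and 41.7 in the set C inputs of Tet2-KI, and that of 9 differentiation markers was 32.4 and 32.1 against 18.4 and 19.4; their part in these differences was not tested. In bulk RNA, a change in the make-up of the culture and a change of level per cell cannot be told apart.

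**Figure D2:**
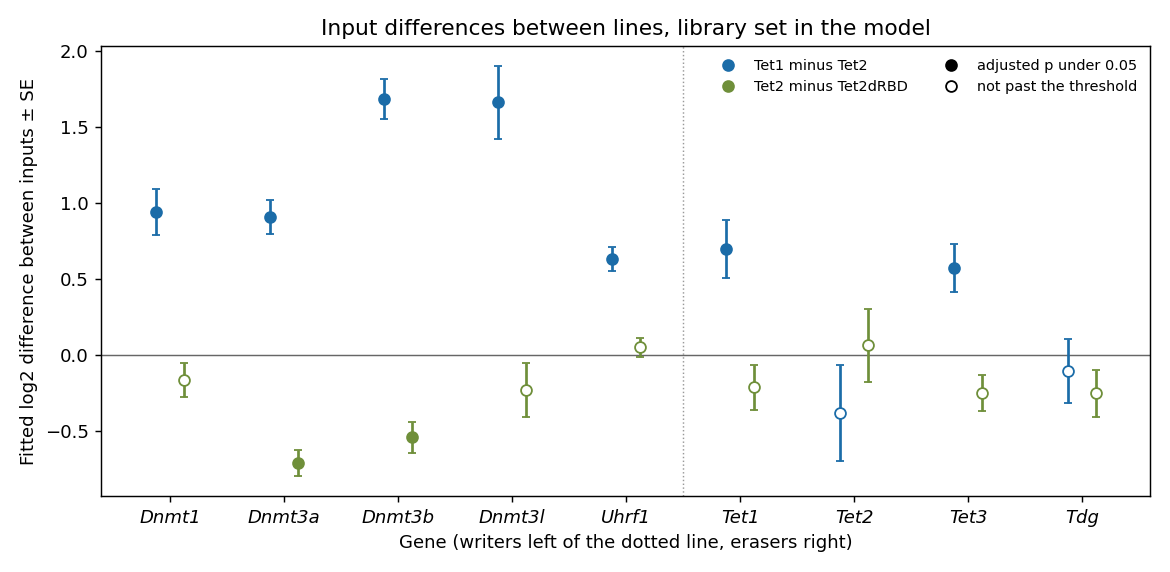
Fitted log2 difference between inputs of 2 lines for each member, with the library set in the model, and bars of 1 SE. Filled symbols passed the test. The 5 writers, Tet1 and Tet3 were higher in Tet1-KI than in Tet2-KI, and Dnmt3a and Dnmt3b were lower in Tet2-KI than in Tet2dRBD-KI.

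Between the inputs of Tet2-KI and Tet2dRBD-KI, 2 members were called, both de novo methyltransferases and both lower in Tet2-KI, in a comparison where 1.35% of all genes were called lower. Dnmt3a was at 9.32, 21.7, 6.50 and 7.17 TPM in replicates 1 to 4 of Tet2-KI and at 14.2, 29.9, 11.5 and 13.6 TPM in those of Tet2dRBD-KI. The groups overlapped across sets, but within each set Tet2-KI was the lower line, and the log2 difference was -0.71 ± 0.09 (edgeR adjusted p = 0.0068). Dnmt3b was lower by a log2 difference of -0.54 ± 0.10 (adjusted p = 0.029), with Tet2-KI again the lower line in every set. Uhrf1 and Tet2 had fitted differences of 0.05 ± 0.06 and 0.06 ± 0.24, and the other members lay between -0.25 and -0.16.

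With inputs omitted in turn, the Dnmt3a call held in 10 of 10 fits and the Dnmt3b call in 4 of 10. The latter was lost without either Tet1-KI input and without replicate 3 or 4 of Tet2-KI or of Tet2dRBD-KI (log2 -0.54 to -0.51, adjusted p 0.067 to 0.12). Conversely, Dnmt3l passed without replicate 1 of Tet2-KI or of Tet2dRBD-KI (-0.50 and adjusted p = 0.045 in each), Dnmt1 without replicate 2 of either line (-0.29 and -0.32, adjusted p = 0.035 and 0.022) and Tet1 without Tet2dRBD-KI replicate 2 (-0.40, adjusted p = 0.047). With the replicate number as a block in place of the library set, no member passed: Dnmt3a and Dnmt3b kept log2 differences of -0.71 and -0.54 with adjusted p = 0.070 and 0.17. The summed differentiation markers were 80.0, 50.8, 18.4 and 19.4 TPM in replicates 1 to 4 of Tet2-KI and 106, 80.2, 46.8 and 49.0 TPM in those of Tet2dRBD-KI, thus also lower in Tet2-KI in every replicate, and their part in the Dnmt3a and Dnmt3b values was not tested.

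The IP libraries hold the transcripts recovered with anti-Flag antibody from cytoplasmic extract, whereas the inputs hold total RNA. With no control IgG analysed, a ratio cannot tell recovery with the Tet protein from the cell fraction or from unspecific recovery. The log2 ratio of IP to input was taken per pair from TPM with 1 added to each value, which understates the change of low transcripts such as Tet3. The median of this ratio over the 13710 tested genes was itself above 0 in every pair, between 0.03 and 0.34. Fitted log2 values come from edgeR on the counts, which centres the genes, so that its median over all genes was between -0.04 and 0.00 in the 3 lines. Ratios from TPM of the members are therefore to be read against that shift. Of the nuclear-retained RNAs listed, the median log2 ratio over the pairs was -0.67 for Neat1, -0.33 for Meg3, 0.05 for Malat1 and 0.18 for Kcnq1ot1. The part of the cell fraction in the members' ratios was not tested.

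**Figure D3:**
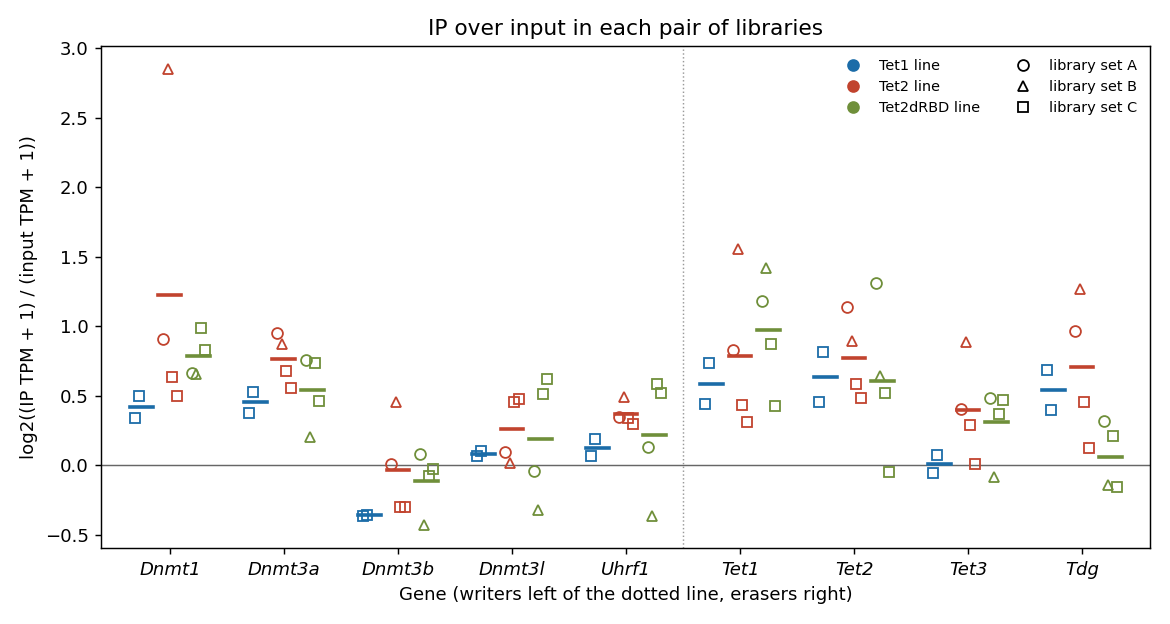
Log2 ratio of IP to input (TPM + 1) of each member in each of the 10 pairs, with colour for the line, symbol shape for the library set and a bar for the mean of a line. Dnmt1, Dnmt3a and Tet1 lie above 0 in all 10 pairs, and the set B pair of Tet2-KI stands apart for Dnmt1 at 2.85.

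On this ratio, 7 of the 9 members were above input in every replicate of Tet1-KI, 8 of 9 in every replicate of Tet2-KI, and 3 of 9 in every replicate of Tet2dRBD-KI. The share of all tested genes above input in every replicate was 50.9%, 46.5% and 31.8% in these lines. The 3 members above input in all 10 pairs were Dnmt1, Dnmt3a and Tet1. After each pair was centred on its median over expressed genes, the counts were 6, 6 and 3, against 41.9%, 25.6% and 18.1% of all genes. At a margin of at least 1.5 times input they were 0, 0 and 1, against 9.13%, 5.92% and 1.29%. Without replicate 2 of Tet2dRBD-KI and with no margin, 5 members were above input in every remaining replicate of that line, against 53.7% of all genes.

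Dnmt1 had the highest ratio of any member in any pair. In Tet2-KI it was at 95.9, 444, 27.3 and 25.3 TPM in the IPs of replicates 1 to 4, against 50.6, 60.6, 17.2 and 17.6 TPM in their inputs. All 4 IPs exceeded their own inputs, and on the scale of TPM + 1 replicate 2 stood far above the others, at 7.22 times input against 1.42 to 1.88 times. The fitted log2(IP/input) was 0.91 ± 0.28 (edgeR adjusted p = 0.030), and without replicate 2 it was 0.45 ± 0.11 with adjusted p = 0.013. The call was lost only without replicate 1 of Tet2-KI when pairs were omitted in turn, at 1.09 and adjusted p = 0.051. In Tet1-KI Dnmt1 was at 45.9 and 53.3 TPM in the IPs against 36.0 and 37.3 in the inputs, a fitted value of 0.28 ± 0.38 that did not pass (adjusted p = 0.71). In Tet2dRBD-KI it was at 109, 71.5, 41.4 and 42.9 TPM against 68.2, 45.0, 20.4 and 23.7, and each IP exceeded its input by 1.58 to 1.98 times. Its fitted value there was 0.53 ± 0.27 (adjusted p = 0.19) with all pairs and 0.54 ± 0.09 (adjusted p = 0.0035) without replicate 2 of Tet2-KI, whose spread enters every line's error in the common fit.

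Dnmt3a was above input in all 10 pairs, and its standard errors were the smallest of the group. In Tet2-KI its IPs were at 18.97, 40.5, 11.0 and 11.0 TPM against inputs of 9.32, 21.7, 6.50 and 7.17, between 1.47 and 1.94 times input in each pair. The fitted log2(IP/input) was 0.48 ± 0.09 (edgeR adjusted p = 0.0034), and it passed with any single pair omitted. In Tet2dRBD-KI the IPs were at 24.7, 34.6, 19.8 and 19.2 TPM against 14.2, 29.9, 11.5 and 13.6, or 1.15 to 1.69 times input, with a fitted value of 0.31 ± 0.09 (adjusted p = 0.036). That call was lost without either Tet1-KI pair, without Tet2-KI replicate 3 or 4, and without Tet2dRBD-KI replicate 1, 3 or 4 (0.26 to 0.34, adjusted p 0.053 to 0.18). In Tet1-KI the IPs were at 19.4 and 20.2 TPM against 14.7 and 13.7, and the fitted value of 0.33 ± 0.13 did not pass (adjusted p = 0.15).

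Dnmt3b was the only member below the median gene in each line by more than its error. Its IPs in Tet2-KI were at 37.9, 120, 25.7 and 25.3 TPM against inputs of 37.6, 87.0, 31.9 and 31.4, so that on the TPM scale replicates 1 and 2 were at or above input and replicates 3 and 4 below it. Relative to the other genes the fitted log2(IP/input) was -0.35 ± 0.11 (edgeR adjusted p = 0.025), whereas limma on log2(TPM + 1) gave -0.03 with adjusted p = 0.86. In Tet2dRBD-KI the IPs were at 45.3, 102, 48.4 and 48.9 TPM against 42.6, 137, 51.1 and 49.8, a fitted value of -0.39 ± 0.10 (adjusted p = 0.027) and -0.11 with limma on TPM (adjusted p = 0.54). In Tet1-KI both IPs, at 84.9 and 85.8 TPM, were below both inputs, at 109 and 110, and the fitted value was -0.51 ± 0.15 with adjusted p = 0.066. Within set C alone, a fit added after seeing the data gave -0.55, -0.52 and -0.33 for Tet1-KI, Tet2-KI and Tet2dRBD-KI, with adjusted p = 6.2e-05, 0.00011 and 0.0017. That fit called 46.8%, 49.9% and 49.1% of all genes. It holds 2 pairs per line from 1 library set, so its p-values leave out the spread between sets.

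The 2 calls of Dnmt3b depended on single pairs. In Tet2-KI the call was lost without replicate 1, 3 or 4 of that line (log2 -0.31 to -0.29, adjusted p 0.090 to 0.13). In Tet2dRBD-KI it was lost without Tet1-KI replicate 1, Tet2-KI replicate 1 or Tet2dRBD-KI replicate 1, 2 or 3 (-0.40 to -0.31, adjusted p 0.054 to 0.11). In Tet1-KI, conversely, the value passed without Tet2-KI replicate 2, at -0.52 and adjusted p = 0.028. The sign was negative in each of these fits.

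Dnmt3l and Uhrf1, the most abundant members, had fitted log2(IP/input) between -0.08 and 0.06 in the 3 lines and passed in none. Their signs depended on the scaling, since limma on log2(TPM + 1) gave values from 0.09 to 0.37, of which Uhrf1 in Tet2-KI passed (adjusted p = 0.045). Dnmt3l moved with the library set. Its ratios in TPM were 0.09 and 0.02 in sets A and B and 0.46 and 0.48 in set C of Tet2-KI, and -0.04 and -0.32 in sets A and B and 0.51 and 0.62 in set C of Tet2dRBD-KI. The set C pairs were the higher in both lines, whereas the Tet1-KI pairs of the same set were at 0.07 and 0.10.

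**Figure D4:**
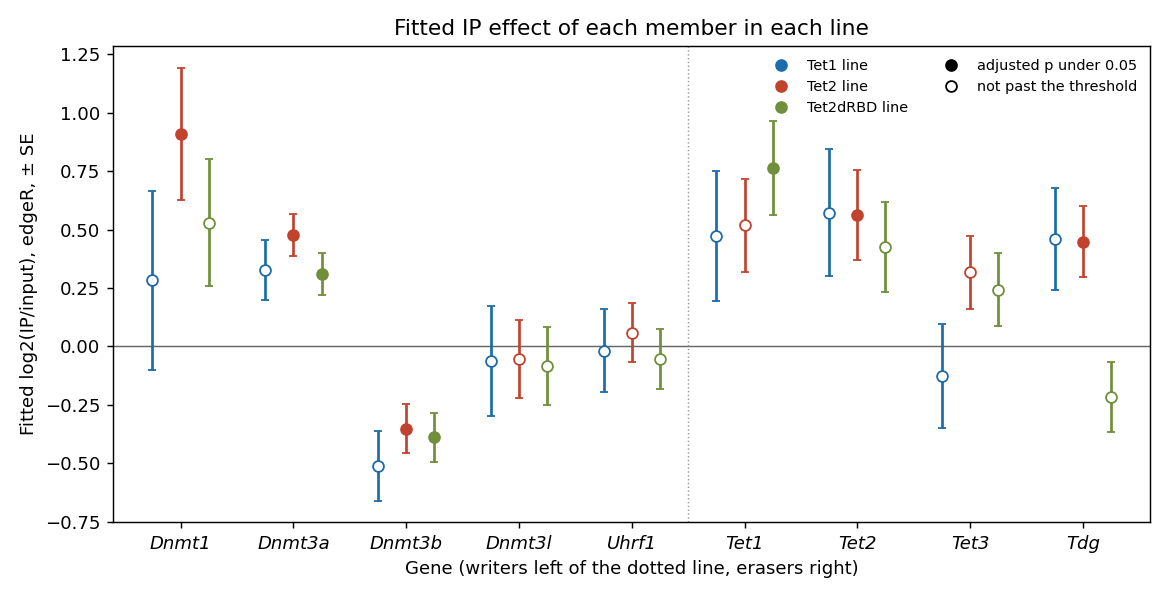
Fitted log2(IP/input) of each member in each line with bars of 1 SE (edgeR, pair as a block). Filled symbols passed at an adjusted p under 0.05: none in Tet1-KI, 5 in Tet2-KI and 3 in Tet2dRBD-KI.

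Among the erasers, Tet1 was above input in all 10 pairs. In Tet1-KI, where its own protein was pulled down, its IPs were at 23.8 and 23.3 TPM against inputs of 17.3 and 13.6, and the fitted value of 0.47 ± 0.28 did not pass (edgeR adjusted p = 0.34). In Tet2-KI the IPs were at 21.5, 37.3, 11.9 and 11.1 TPM against 11.7, 12.04, 8.54 and 8.75, a fitted value of 0.52 ± 0.20 outside the threshold (adjusted p = 0.066), and 0.32 (adjusted p = 0.23) without replicate 2. In Tet2dRBD-KI they were at 40.1, 24.9, 18.9 and 17.9 TPM against 17.1, 8.66, 9.86 and 13.1, so that every IP exceeded every input of that line. The fitted value there, 0.76 ± 0.20 (adjusted p = 0.024), was the largest of the 3 called in Tet2dRBD-KI. It was lost without Tet2dRBD-KI replicate 1, 2 or 3 (0.57 to 0.82, adjusted p 0.058 to 0.066), and the Tet2-KI value passed without Tet2dRBD-KI replicate 2 or 4 (adjusted p = 0.025 and 0.039).

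Tet2 transcripts were above input in 9 of 10 pairs. In Tet2-KI the IPs lay close together at 10.3, 11.3, 10.2 and 10.3 TPM, all above the inputs at 4.14, 5.61, 6.46 and 7.12, and the fitted log2(IP/input) was 0.56 ± 0.19 (edgeR adjusted p = 0.043). In Tet2dRBD-KI the IPs were at 16.7, 4.44, 9.22 and 8.86 TPM against 6.12, 2.49, 6.13 and 9.21, and the last pair was below input. The fitted value of 0.43 ± 0.19 did not pass (adjusted p = 0.14), and it ranged from 0.23 (adjusted p = 0.44) without replicate 1 to 0.67 (adjusted p = 0.021) without replicate 4, with -0.02 within set C. In Tet1-KI the IPs were at 9.66 and 9.47 TPM against 6.77 and 4.96, with 0.57 ± 0.27 (adjusted p = 0.23). The Tet2-KI call was narrow and failed in 7 of 10 such reduced fits, namely without either Tet1-KI pair, without any single Tet2-KI pair, or without Tet2dRBD-KI replicate 3 (0.48 to 0.62, adjusted p 0.052 to 0.13).

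Tdg showed the largest fitted gap of any member between Tet2-KI and Tet2dRBD-KI when all pairs were fitted. Its IPs in Tet2-KI were at 30.0, 30.4, 5.70 and 5.53 TPM against inputs of 14.8, 12.02, 3.88 and 4.98, each above its own input, and the fitted value was 0.45 ± 0.15 (edgeR adjusted p = 0.042). In Tet2dRBD-KI the IPs were at 22.7, 9.49, 5.94 and 6.60 TPM against 18.0, 10.5, 4.98 and 7.48, with 2 pairs above and 2 below input and a fitted value of -0.22 ± 0.15 (adjusted p = 0.32; 0.06 with limma on TPM). In Tet1-KI the IPs were at 7.78 and 6.61 TPM against 4.45 and 4.76, with 0.46 ± 0.22 (adjusted p = 0.23), or 0.23 (adjusted p = 0.83) without replicate 1 and 0.68 (adjusted p = 0.62) without replicate 2. The Tet2-KI call was lost without either Tet1-KI pair, without Tet2-KI replicate 1, 2 or 3, and without Tet2dRBD-KI replicate 3 (0.31 to 0.49, adjusted p 0.052 to 0.16). Within set C alone the Tdg value was 0.12 in Tet2-KI and -0.26 in Tet2dRBD-KI (edgeR adjusted p = 0.50 and 0.15). Their difference there was 0.39 ± 0.20, beside 0.40 ± 0.16 for Tet2, and neither passed (edgeR adjusted p = 0.44 and 0.35).

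Tet3 passed in none of the lines. Its IPs ranged from 1.05 to 4.67 TPM over the 3 lines and its inputs from 0.81 to 2.44, and its fitted values were -0.13 ± 0.22, 0.32 ± 0.16 and 0.24 ± 0.16 in Tet1-KI, Tet2-KI and Tet2dRBD-KI. The highest IP, at 4.67 TPM, was again replicate 2 of Tet2-KI, without which the value of that line was 0.19. In Tet2dRBD-KI the value ranged from 0.14 without replicate 4 to 0.43 without replicate 2.

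In all, edgeR called none of the 9 members in Tet1-KI, where 5.9% of all genes were called in either direction. At an unadjusted p under 0.05, 2 members passed there (Dnmt3a and Dnmt3b) beside 23.5% of all genes. DESeq2 called 1 (Dnmt3b) beside 11.5% of all genes. In Tet2-KI 4 members were higher in the IP (Dnmt1, Dnmt3a, Tet2 and Tdg) against 14.6% of all genes, and 1 was lower (Dnmt3b) against 18.5%. In Tet2dRBD-KI 2 were higher (Dnmt3a and Tet1) against 7.4% of all genes, and 1 was lower (Dnmt3b) against 12.1%. The median fitted log2(IP/input) of the members was 0.28, 0.45 and 0.24 in Tet1-KI, Tet2-KI and Tet2dRBD-KI, beside -0.04, 0.00 and -0.01 for all genes tested. Within set C alone 6, 5 and 7 members were called in Tet1-KI, Tet2-KI and Tet2dRBD-KI, in a fit where 46.8%, 49.9% and 49.1% of all genes were.

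Whether the effect of the IP differed between lines was tested directly. For Tet2-KI minus Tet2dRBD-KI, edgeR called no member, against 0.0219% of all genes, and DESeq2 called none, against 0.212%. At an unadjusted p under 0.05 from edgeR, 1 member passed, beside 3.03% of all genes. That was Tdg, with a log2 difference of 0.67 ± 0.21 (unadjusted p = 0.0099 from edgeR, adjusted p = 1.00). For Tet2 itself, whose protein lost its RBD, the difference was 0.14 ± 0.27, and for Dnmt1 it was 0.38 ± 0.39, or -0.08 without replicate 2 of Tet2-KI. For Tet1-KI minus Tet2-KI, edgeR called no member, against 0% of all genes, and DESeq2 called none, against 0.0948%. No member had an unadjusted p under 0.05 from edgeR, beside 3.77% of all genes. The differences of the transcripts of the 2 tagged proteins were -0.05 ± 0.34 for Tet1 and 0.01 ± 0.33 for Tet2. With errors of this size, no statement can be made that the lines acted alike.

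Writers and erasers were then set against each other within each pair, as the mean log2 ratio of the 5 writers minus that of the 4 erasers. The erasers were the higher in both Tet1-KI pairs, with differences of -0.29 and -0.31. Replicates 1 to 4 of Tet2-KI gave -0.37, -0.21, -0.08 and 0.07, and those of Tet2dRBD-KI gave -0.51, -0.51, 0.05 and 0.31. The erasers were thus above the writers in all 4 pairs of sets A and B, while in set C the 2 lines with tagged Tet2 were near 0 or above it. The line means were -0.30 ± 0.02 (SD, n = 2), -0.15 ± 0.19 (n = 4) and -0.16 ± 0.41 (n = 4), so in the 2 lines with tagged Tet2 the difference was smaller than the spread between pairs.

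**Figure D5:**
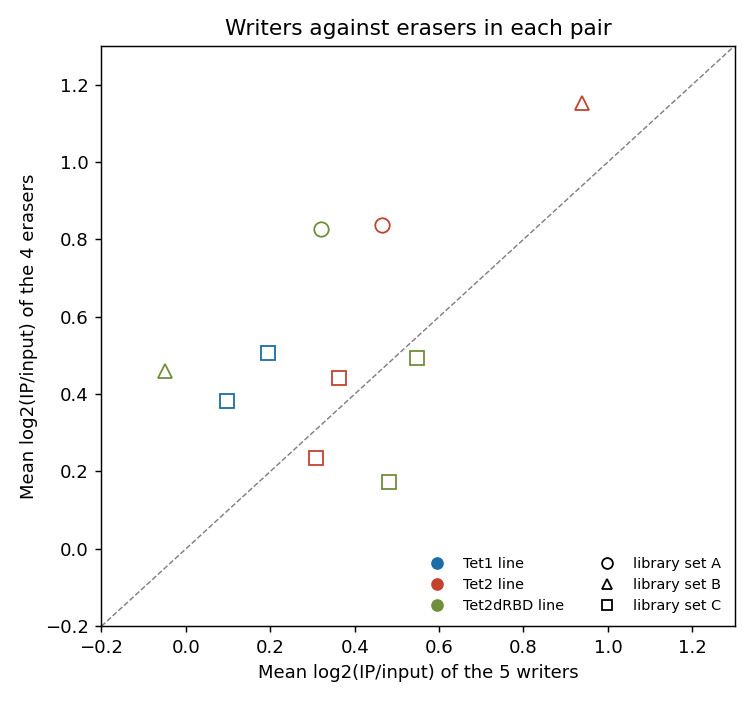
Mean log2 ratio of IP to input over the 4 erasers against that over the 5 writers in each of the 10 pairs, with equality as the dashed line, colour for the line and symbol shape for the library set. The pairs of sets A and B and both Tet1-KI pairs lie above the dashed line, with the erasers higher, while 3 of the 4 other pairs lie below it.

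The difference depended on which transcripts entered it. Without Tet1 and Tet2 it was -0.13 in Tet1-KI and 0.14 in Tet2dRBD-KI, a turn of direction in the latter, and within set C the Tet2dRBD-KI mean was 0.18. In Tet2-KI the mean log2 ratio of the writers was 0.52, between those of the remaining erasers, Tet3 at 0.40 and Tdg at 0.71. Among the writers, Dnmt3b had the lowest mean log2 ratio of any member in each line. It was -0.36, -0.03 and -0.11 in Tet1-KI, Tet2-KI and Tet2dRBD-KI, and the difference without Dnmt3b is not given here. Neither group moved as a unit: Dnmt3b lay apart from Dnmt1 and Dnmt3a among the writers, and Tet3 had the lowest or the next to lowest fitted value among the erasers of each line.

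The member with the most similar ratios over the 10 pairs was Uhrf1 for Dnmt3l and Dnmt3l for Uhrf1, with a root mean square difference of 0.20 on the log2 scale. Dnmt3a and Tet2 were likewise each other's nearest member, at 0.31. Among the 8467 genes with a mean input of at least 5 TPM, the gene nearest to each member was Ap3d1 for Dnmt1 (0.19), Kank3 for Dnmt3a (0.13), Ppp1r15b for Dnmt3b (0.07), Copz1 for Dnmt3l (0.07), Crmp1 for Uhrf1 (0.07), Ptpn12 for Tet1 (0.18), Brca1 for Tet2 (0.13), Hif1an for Tet3 (0.06) and Stag3 for Tdg (0.23). These are descriptions over pairs that share library sets and scaling.

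The pathway beyond the 9 members was followed through 36 further genes, all of which were tested: 7 of maintenance and protection of methylation, 10 readers, 12 of excision repair, 2 deaminases and 5 of methyl donor supply. In Tet2-KI 5 were higher and 7 lower in the IP, in Tet2dRBD-KI 1 was higher and 3 lower, and in Tet1-KI 1 was higher and none lower. As shares of the list these were 13.9% and 19.4% in Tet2-KI, beside 14.6% and 18.5% of all genes, and 2.78% and 8.33% in Tet2dRBD-KI, beside 7.4% and 12.1%, while the share in Tet1-KI was 2.78% beside 5.9% of all genes in either direction. Their median fitted values were 0.02, 0.13 and 0.04 in Tet1-KI, Tet2-KI and Tet2dRBD-KI, closer to the median of all genes than those of the members. No gene of the list was called for Tet2-KI minus Tet2dRBD-KI or for Tet1-KI minus Tet2-KI.

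Of the genes that guard or maintain methylation, only Dppa3 passed, and it was lower in the IP. Dppa3 encodes Stella, which protects maternal methylation in the zygote and keeps Uhrf1 from chromatin. Its IPs in Tet2-KI were between 3.93 and 19.5 TPM and its inputs between 8.82 and 32.0, and the fitted log2(IP/input) was -1.25 ± 0.20 in Tet2-KI (edgeR adjusted p = 0.0014) and -0.79 in Tet2dRBD-KI (adjusted p = 0.020). The value in Tet1-KI was -0.71 with adjusted p = 0.15.

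The 3 readers called were of different kinds in Tet2-KI. Zbtb38, a zinc finger protein that binds methylated DNA, had the largest value of the list, 2.22 ± 0.56 (edgeR adjusted p = 0.012), at a level of only 0.19 to 0.37 TPM in the inputs and 1.18 to 3.13 TPM in the IPs of that line. Mbd2, a methyl-CpG binding protein, was at 4.12 to 6.66 TPM in the inputs and 7.74 to 12.01 in the IPs of Tet2-KI, without overlap, and passed in Tet2-KI (0.65, adjusted p = 0.026) and in Tet2dRBD-KI (0.90 ± 0.20, adjusted p = 0.011). Zbtb33, which encodes the methyl-CpG binding repressor Kaiso, was lower in the IP of Tet2-KI, at -0.77 ± 0.17 (adjusted p = 0.0065).

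In excision repair, Polb, the DNA polymerase that fills the gap left by the glycosylase, was the only listed gene called in Tet1-KI. Its IPs there were at 47.1 and 52.2 TPM against inputs between 20.8 and 24.8, a fitted value of 0.98 ± 0.25 (edgeR adjusted p = 0.046), and it also passed in Tet2-KI (0.51, adjusted p = 0.046). Gadd45a, a stress-induced gene linked to demethylation by repair, was at 92.3 to 107 TPM in the IPs and 51.2 to 57.1 in the inputs of Tet2-KI, with 0.61 ± 0.10 (adjusted p = 0.0014). Its fitted value in Tet2dRBD-KI was -0.06 (adjusted p = 0.71), with IPs at 80.55, 86.7, 127 and 121 TPM against inputs of 71.6, 76.85, 95.9 and 110. The difference of Gadd45a between these lines did not pass, at 0.66 ± 0.14 (edgeR adjusted p = 0.29). Its relative Gadd45b was lower in the IP of Tet2-KI, at -0.60 ± 0.16 (adjusted p = 0.014), and so was Apex1, the endonuclease that cuts at abasic sites, at -0.47 ± 0.14 (adjusted p = 0.027).

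Of the genes that supply the methyl donor, Mtr, the methionine synthase, was higher in the IP of Tet2-KI, at 0.72 ± 0.13 (edgeR adjusted p = 0.0029). Mat2b, a regulatory subunit of the enzyme that makes S-adenosylmethionine, was lower in Tet2-KI, at -0.65 ± 0.09 (adjusted p = 0.00059), and in Tet2dRBD-KI, at -0.54 (adjusted p = 0.0032). The remaining 2 of the 12 genes that passed in at least 1 line were Mat2a and Neil2. In the inputs, 8 of the 35 listed genes tested were higher in Tet1-KI than in Tet2-KI, or 22.9% beside 17.5% of all genes. None was lower, where 1860 of all 13310 genes were, and the median difference was 0.20. Between Tet2-KI and Tet2dRBD-KI, 2 listed genes were lower in Tet2-KI (Gadd45a and Mat2a), or 5.71% beside 1.35% of all genes.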

How the data were processed

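RNA from anti-Flag IPs and inputs was sequenced in 20 libraries. The authors trimmed reads and estimated counts with RSEM on mm9 with RefSeq transcripts; FastQC, Bowtie2 and Trimmomatic are also named in the submitters' processing notes, and versions are not given in the sources used here. The deposited files hold the expected count of each gene and its TPM with 1 added by the authors, handled here as a score since the addition changes the library sum. The deposited effective length was used only for description. The estimated counts were rounded and fitted with edgeR 4.0.16 (quasi-likelihood, TMM) in R 4.3.3, keeping genes with at least 1 CPM in at least 2 libraries. The IP fit over all 20 libraries held a term per IP and input pair (the replicate block) and one IP term for each line (7 residual degrees of freedom). The input fit over 10 libraries had line and library set (5 residual degrees of freedom). P-values were adjusted over all tested genes by Benjamini-Hochberg, with a threshold of 0.05. The code was tested on simulated data.

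Pairs share a number and a line. Over expressed genes, deviations of same-numbered IP and input from their group means correlated at 0.18 to 0.86. In set C, the replicate 4 IP correlated more with input 3 than with its own input. The values were 0.78 against 0.76 in Tet2-KI and 0.69 against 0.58 in Tet2dRBD-KI. The replicate 3 IP correlated more with its own input, at 0.78 against 0.75 and 0.71 against 0.58. These correlations thus separate library sets, not replicates 3 and 4 within set C. With 2 Tet1-KI replicates, same-numbered and different-numbered values differ only in sign. Same-numbered inputs of Tet2-KI and Tet2dRBD-KI correlated at 0.69 to 0.88, and different-numbered inputs of set C at 0.70 and 0.79. Replicates 3 and 4 of Tet2-KI and Tet2dRBD-KI differed by more than counting error, with a chi-square per gene of 2.69 to 3.48, or 16.1 for the Tet2dRBD-KI inputs, while pairs of these lines that crossed library sets gave at least 132. Alternatives used limma 3.58.1 with a pseudocount of 1 or 0.1 TPM, DESeq2 1.42.0, other filters and left-out libraries. Other genes of the pathway were named where they passed in at least 1 line, up to 10 by size of the fitted value (Mat2a and Neil2 were named to complete a count). The members and lists were chosen with earlier results of these data known. Gene positions are from GENCODE M1 on mm9, and guide sequences are from the study's oligo list.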

Additional observations from a re-analysis of the deposited data

Results flagged for a closer look

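In 8 of the 54 sets of 4 replicates examined (each member's TPM in IP and in input and its ratio, in Tet2-KI and Tet2dRBD-KI), the highest replicate lay far from the others relative to the range of its set. Its gap, over the whole range, exceeded Dixon's critical value, which chance exceeds in about 1 in 20 sets of 4 independent values. Replicates 3 and 4 share a library set, and the ratio reuses the IP and input libraries, so 8 of 54 cannot be read against that rate. All 8 were replicate 2, which is the set B library of its line. In Tet2-KI these were the IP level of Dnmt1 (444.11 TPM), the IP and input levels of Dnmt3b (119.71 and 86.97 TPM) and the IP level of Tet2 (11.32 TPM). The gap of Tet2 was small in TPM, since the other IPs of that line were between 10.17 and 10.34 TPM. In Tet2dRBD-KI they were the IP and input levels of Dnmt3b (101.7 and 137.45 TPM) and the input levels of Dnmt3a (29.85 TPM) and Tet3 (2.44 TPM). The Dnmt3b level was high in the IP and the input of both lines, whereas the Dnmt1 level was high only in the IP of Tet2-KI, where the input was 60.6 TPM and the matching Tet2dRBD-KI libraries were at 71.5 and 45.0 TPM. The part of the library set in these values was not tested beyond the fits with and without it.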

How the results depend on the processing

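Across the alternatives, counts of members called and some fitted values moved: of the single-gene values, 50 changed sign, and of the others 81 lost a call, 35 gained one and 721 did neither. Without the replicate block, 0 members were called in each line, beside 0%, 2.74% and 0.336% of all genes in Tet1-KI, Tet2-KI and Tet2dRBD-KI. With DESeq2, 1 was called in Tet1-KI and 6 in Tet2-KI (Tet1 in addition, adjusted p = 0.034), beside 11.5% and 35.9% of all genes. With limma on log2(TPM + 1), 7 were called in Tet2-KI beside 43.1% of all genes, with Tet1, Tet3 and Uhrf1 gained and Dnmt3b lost. In fits of the compared lines only, 6 were called in Tet1-KI, 2 in Tet2-KI and 0 in Tet2dRBD-KI, beside 55%, 29% and 5.64% of all genes. The Tet1-KI fit there rested on 2 pairs. With replicates 3 and 4 merged, 3 and 1 were called in Tet2-KI and Tet2dRBD-KI, beside 23.4% and 7.79% of all genes. Without a filter on low counts, 1 was called in Tet2dRBD-KI, beside 11.9%. Within library set C, chosen after seeing the data, 6 and 7 were called in Tet1-KI and Tet2dRBD-KI, beside 46.8% and 49.1%. The fits that left out 1 pair gave 0 to 1, 1 to 6 and 0 to 4 members in Tet1-KI, Tet2-KI and Tet2dRBD-KI. No member was called for a difference in the IP effect between lines in any of these fits. The shares of all genes called were at most 0.68% for Tet2-KI minus Tet2dRBD-KI and 2.35% for Tet1-KI minus Tet2-KI, both within set C. Over all genes, leaving out 1 pair gave 19.8% to 39.4% called in Tet2-KI and 5.82% to 25% in Tet2dRBD-KI. In Tet1-KI the share was 2.35% to 11% where both of its pairs were kept. For inputs without the library set, 0 were called in either comparison. The shares of all genes were 0.406% for Tet1-KI minus Tet2-KI and 0% for Tet2-KI minus Tet2dRBD-KI. With the replicate block, 0 were called for Tet2-KI minus Tet2dRBD-KI, beside 0.0379% of all genes. Leaving out 1 input gave 5 to 7 for Tet1-KI minus Tet2-KI and 1 to 4 for Tet2-KI minus Tet2dRBD-KI. Over all genes, those fits called 0.249% to 11.4% for Tet2-KI minus Tet2dRBD-KI. For Tet1-KI minus Tet2-KI they called 20.1% to 43.9% where both Tet1-KI inputs were kept. At a margin of 1.5 times, 0, 0 and 1 members were above input in every replicate of Tet1-KI, Tet2-KI and Tet2dRBD-KI, beside 9.13%, 5.92% and 1.29% of all genes. The counts with no margin were 7, 8 and 3, beside 50.9%, 46.5% and 31.8%. With no margin, 6 were above input in Tet2dRBD-KI within set C, and leaving out a pair gave 7 to 8, 8 and 3 to 5 in the 3 lines. Fewer pairs make this rule easier to pass for any gene. A matching share of all genes was taken only without Tet2dRBD-KI replicate 2, at 53.7%, so the other reduced counts have none to be read against.

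Writers minus erasers in Tet1-KI became -0.34 with a pseudocount of 0.1, -0.38 with medians, -0.27 without Tdg and -0.13 without Tet1 and Tet2. In Tet2dRBD-KI it turned to 0.14 without Tet1 and Tet2 and 0.18 within set C. Leaving out a pair gave -0.31 to -0.29, -0.22 to -0.07 and -0.32 to -0.05 in Tet1-KI, Tet2-KI and Tet2dRBD-KI.

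Single genes changed sign mainly where the fitted value was near 0. With limma on log2(TPM + 1) and on log2(TPM + 0.1), in that order, Dnmt3l became 0.086 and 0.086 in Tet1-KI, 0.26 and 0.26 in Tet2-KI and 0.19 and 0.19 in Tet2dRBD-KI. Uhrf1 became 0.13 and 0.13 in Tet1-KI and 0.22 and 0.22 in Tet2dRBD-KI. Tet3 in Tet1-KI became 0.011 and 0.020, and Tdg in Tet2dRBD-KI 0.060 and 0.064. Tet2 for Tet1-KI minus Tet2-KI became -0.14 and -0.16. With DESeq2 or its size factors, Uhrf1 in Tet2dRBD-KI became 0.0028 and 0.0031, and Tet2 for Tet1-KI minus Tet2-KI -0.0084 and -0.0084. In compared lines only, Uhrf1 in Tet1-KI became 0.014. With replicates 3 and 4 merged, Tet2 for Tet1-KI minus Tet2-KI became -0.042. Within set C, Dnmt3l became 0.26 in Tet2-KI and 0.29 in Tet2dRBD-KI and Uhrf1 0.28 in Tet2dRBD-KI, all past the threshold. The set C fit called 49.9% and 49.1% of all genes in these lines. There Tet2 became -0.015 in Tet2dRBD-KI and -0.10 for input of Tet2-KI minus Tet2dRBD-KI, Tet1 0.23 for Tet1-KI minus Tet2-KI and Dnmt1 -0.27 for Tet2-KI minus Tet2dRBD-KI. Without the library set, input differences became -0.035 for Dnmt1 and -0.12 for Uhrf1 in Tet1-KI minus Tet2-KI, and -0.029 for Tet2 in Tet2-KI minus Tet2dRBD-KI. The cause of each was not tested.

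Leaving out 1 library turned the sign of the following values, given as their ranges. Dnmt3l ranged from -0.18 to 0.088 in Tet2-KI and from -0.23 to 0.061 in Tet2dRBD-KI, and Uhrf1 from -0.16 to 0.11 in Tet2dRBD-KI. The input of Tet2 ranged from -0.25 to 0.26 for Tet2-KI minus Tet2dRBD-KI. For Tet1-KI minus Tet2-KI, Tet1 ranged from -0.16 to 0.15, Tet2 from -0.14 to 0.16, Dnmt3l from -0.15 to 0.12 and Tdg from -0.21 to 0.23. For Tet2-KI minus Tet2dRBD-KI, Dnmt1 ranged from -0.085 to 0.58, Tet2 from -0.11 to 0.34, Dnmt3b from -0.077 to 0.091, Dnmt3l from -0.10 to 0.18, Tet3 from -0.084 to 0.22 and Uhrf1 from -0.023 to 0.22. Depth limits Tet3 most, whose lowest estimated count was 160.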

Other observations

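The deposited gene length of Tet1, an average over its transcripts weighted by their estimated shares, was 14082 bases in all 4 Tet1-KI libraries to the nearest base. It ranged from 14005 to 14082 bases in the inputs of Tet2-KI and from 13986 to 14015 bases in those of Tet2dRBD-KI, whose IPs reached from 13992 to 14082 bases.

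Nanog, a pluripotency factor outside the pathway, was below input in all 10 pairs, with log2 ratios from -1.12 to -0.60, while Pou5f1 lay between -0.17 and 0.23.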
